A study of Mus musculus with 6 samples.

Results

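The cells described are the smooth muscle cells (SMCs) of the mouse proximal pulmonary artery (PA), captured as single cells in droplets and sequenced with unique molecular identifiers (UMIs, 1 per captured RNA molecule). A barcode, the tag of 1 droplet, was kept from 500 UMIs and 300 genes upward, unless over 20% of its UMIs were mitochondrial. SMCs were chosen by measured values. A kept barcode was a member when the UMIs of 5 smooth muscle markers (Myh11, Cnn1, Lmod1, Actg2 and Myocd) numbered at least 3 and more than 2 times the UMIs of 7 genes of other cell types (Ptprc, Pecam1, Cdh5, Pdgfra, Clec3b, Msln and Scgb1a1). The rule found 3530 members among 15622 kept barcodes (22.6%). These 12 genes are therefore described without a test.

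Each of 6 libraries came from the proximal PA of wild type C57BL/6J mice, which the study counts as 1 mouse per library. The 2 young libraries, both of 3 months, are 3m (male) and f3m (female). The 4 old libraries are 20m, 24m and m27mo, males in the study and named by their age in months, and f28m, from a female of 28 months. The study had 1 more young mouse, not analysed here. Old mice came from 2 colonies and young mice from 1 of these, and which library came from which is not given, so colony and age cannot be told apart. No group carried an engineered allele or was given an agent. Library 24m held 2 members and was left out of every comparison of expression. Unless stated otherwise, values are levels in CPM, the UMIs of a gene per 1000000 UMIs summed over the members of a library, in the order 3m, f3m, 20m, m27mo and f28m.

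SMCs form the media of the artery, where they set the tone of the vessel and, with neighbouring cells, lay down its elastic fibres. Contraction runs from calcium entry and release to myosin light chain kinase and the sliding of smooth muscle actin over myosin, and is opposed by nitric oxide and cyclic GMP. Many contractile genes are switched on by serum response factor with its partner myocardin at a DNA motif named the CArG box. Fibroblasts (FBs) of the adventitia, the layer outside the media, were the cells that SMCs were compared with.

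The members were spread unevenly over the libraries. They numbered 13 of 2722 kept barcodes in 3m (0.478%, 95% exact interval 0.255 to 0.815), 18 of 935 in f3m (1.93%, 1.14 to 3.03) and 138 of 1233 in 20m (11.2%, 9.49 to 13.1). There were 2 of 2868 in 24m (0.0697%, 0.00845 to 0.252), 2375 of 3797 in m27mo (62.5%, 61.0 to 64.1) and 984 of 4067 in f28m (24.2%, 22.9 to 25.5). The intervals cover counting error only. Of the old libraries 20m, m27mo and f28m lay above both young ones and 24m lay below them, so the groups overlapped. Old libraries averaged 24.5% ± 27.2 (SD, n = 4), young ones 1.20% ± 1.02 (SD, n = 2), a difference of 23.3 percentage points that did not pass a two-sided exact permutation test (p = 0.4, with 0.133 the smallest p this design allows). Without m27mo the difference was 10.6 points.

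Libraries differed in depth as well. They held 9487564, 6355125, 7042921, 12851645, 36218542 and 50436562 UMIs in all, in the order 3m, f3m, 20m, 24m, m27mo and f28m. The members held a median of 921, 693.5, 3181.5, 1170.5, 9504 and 6689.5 UMIs, and they summed to 13903, 13381, 460619, 2341, 22827680 and 6481293 UMIs. The young SMCs thus rest on 31 barcodes and 27284 UMIs, where 1 UMI is worth 71.9 CPM in 3m and 74.7 CPM in f3m. With each kept barcode thinned to 500 UMIs, the difference in share was 16.7 points. It was 10.8 points over members without a UMI of the 7 genes of other cell types, where the share of m27mo was 22.4%.

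**Figure D1:**
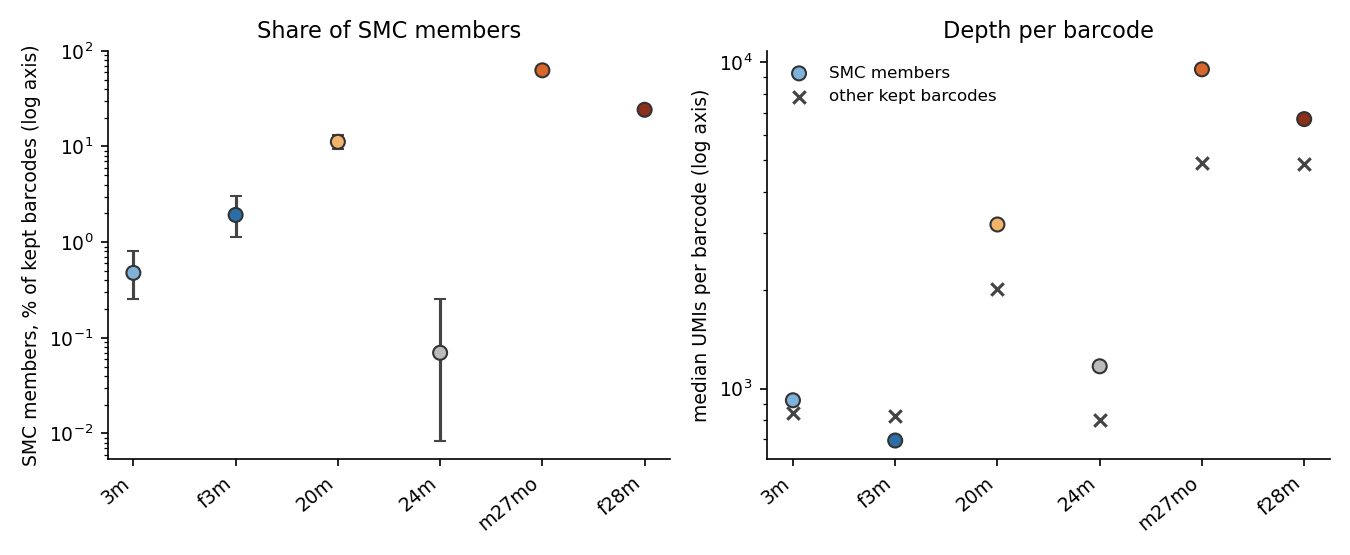
Left, SMC members as a percentage of kept barcodes in each of 6 libraries on a log axis, with 95% exact binomial intervals. Right, median UMIs per barcode of the members (circles) and of the other kept barcodes (crosses), also on a log axis. The shares run from 0.0697% in 24m to 62.5% in m27mo.

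Checks of the libraries came before any comparison. Library 3m shared 156 kept barcodes with f3m and 131 with 24m, and f3m shared 215 with 24m. Other pairs shared at most 4. Members were shared only between m27mo and f28m, which had 1 barcode in common. Xist, transcribed from the inactive X chromosome of females, had 0, 10, 323, 37 and 5396 UMIs in the members, and the Y-linked Ddx3y had 2, 0, 30, 4581 and 1. Xist stood at 701, 1.62 and 833 CPM in 20m, m27mo and f28m, so the library labelled 20m, a male in the study, went against its sex by this gene. Ddx3y stood at 65.1, 201 and 0.154 CPM in the same libraries. In barcodes of 1 to 100 UMIs it stood at 31.2, 34, 2637, 57 and 0 CPM over the 5 libraries, by far the highest in 20m. Other Y-linked genes were low in 20m, with Uty at 4.34, 67.8 and 0 CPM, Eif2s3y at 0, 60.8 and 0 and Kdm5d at 2.17, 14.3 and 0.463 in 20m, m27mo and f28m. Without 20m, 2849 of 6611 genes differed between SMCs and FBs, and the counts between ages without 20m stand beside those results.

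The markers that chose the members were found in most members of the deep libraries. Myh11, the smooth muscle myosin heavy chain, had a UMI in 100% of members in every library except m27mo (99.9%), at 2805, 4110.3, 1849.7, 5299 and 5659.7 CPM. Cnn1, an actin-binding regulator of contraction, stood at 1510.5, 1196, 803, 1022 and 1176 CPM, and Lmod1, which nucleates actin filaments, at 432, 448, 365, 638 and 895. Actg2, a smooth muscle actin typical of visceral muscle, stood at 503, 448, 612, 539.7 and 536 CPM and the coactivator Myocd at 288, 448, 180.2, 920.1 and 634. Members at the limit of 3 marker UMIs held Acta2 at 12953 CPM (1 barcode), 19790.5 (4), 15867 (2), 4476 (11) and 3322 (8). Barcodes just outside, with 2 marker UMIs, held Acta2 at 1418 CPM (3 barcodes), 15669.5 (5), 5160 in m27mo (7) and 1753 in f28m (8), and those 7 barcodes also held the FB gene Dcn at 17499 CPM.

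Of the 7 genes that counted against membership, Ptprc, Cdh5, Pdgfra, Clec3b and Msln stayed at or below 14.0 CPM in each old library. Pecam1, of endothelial cells, stood at 43.4, 45.3 and 53.5 CPM in 20m, m27mo and f28m, with a UMI in 13 of 138, 664 of 2375 and 215 of 984 members, and at 0 UMIs in the young libraries. Scgb1a1, a secreted product of airway cells, reached 144, 822, 39.1, 75.2 and 15.3 CPM in members, close to its 93.6, 942, 45.5, 88 and 14.1 CPM in FBs. Free RNA was measured in immune barcodes (at least 1 Ptprc UMI, not members). An Acta2 UMI was found in 51.1% of 315 such barcodes of m27mo and in 15.5% of 1014 of f28m, at median depths of 5981 and 6244.5 UMIs. Members had one in 99.8% and 99.5%. In the other libraries at most 2.5% of immune barcodes had an Acta2 UMI, the highest being f3m with 40 such barcodes. Their median depths were lower, at 892, 939.5, 2531 and 806 UMIs in 3m, f3m, 20m and 24m. The shares of shallow and deep libraries are therefore not on 1 scale.

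FBs were taken as kept barcodes with at least 3 UMIs of Pdgfra, Clec3b, Dpt, Lum and Pi16 together and more than 2 times the UMIs of the smooth muscle, immune, endothelial, mesothelial and airway genes. They numbered 127, 28, 140, 497 and 811 in the 5 libraries compared, and 1 barcode passed both rules. The UMIs of each cell type were added up within a library, and the library was a block, since its SMCs and FBs came from 1 mouse. Of 8590 genes tested with edgeR, 1722 were higher in SMCs (20.0%) and 1837 were lower (21.4%) at an adjusted p under 0.05, the genes of both rules left out. Of these 3559, 1506 had the same sign in all 5 libraries. With the 3 old libraries alone, 3285 of 7750 genes passed. The median log2 difference over all genes tested was -0.02.

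All 24 members of the list of the contractile apparatus were tested and all 24 were higher in SMCs, with a median log2 difference of 4.07 against -0.02 for all genes. Acta2, the smooth muscle actin, stood at 15320.4, 16665, 27224, 11823 and 13353 CPM in SMCs and 0, 0, 26.3, 119 and 48.9 CPM in FBs, and differed by 8.40 ± 0.38 (SE), adjusted p = 7.23e-65. Every SMC value was far above every FB value. Tagln, an actin-binding protein of the same cells, stood at 11508, 11808, 18649, 5918 and 7473 CPM against 7.2, 0, 43.1, 43 and 35.5 and differed by 8.05 ± 0.36 (SE), adjusted p = 7.67e-105. The myosin regulatory light chain Myl9 differed by 6.10 on the log2 scale, the tropomyosin Tpm2 by 6.25, the kinase Mylk, which phosphorylates that light chain, by 6.29 and the phosphatase inhibitor Ppp1r14a by 5.75. Among the smallest differences of the list were those of Ppp1r12b, a myosin phosphatase subunit (1.94), and the cytoskeletal Pdlim7 (1.98). Des, the intermediate filament of muscle, was low at 71.9, 374, 510.2, 212 and 217 CPM and still differed by 5.19. Since the count is of UMIs at the 3′ end of a transcript, these levels are not scaled by transcript length.

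The CArG box, the motif of serum response factor, was searched for in windows from 250 bases before to 50 bases after the start of each gene (RefSeq, GRCm38.p6). The box is CC, then 6 letters that are each A or T, then GG, and 1 search covers both strands. It was found in 535 of 32851 windows (1.63%). Of the 29 contractile and marker genes 24 had a window, some more than 1, and 5 of their 29 windows held a box (17.2%). They belong to 4 genes, Myl9, Vcl, Myl6 and Ldb3, since the 2 windows of Ldb3 overlap and hold the same box, and a further window of Myl6 held none. Among windows of tested genes the share was 1.43%, against 42 of 1858 windows (2.26%) of genes higher in SMCs and 26 of 1864 (1.39%) of genes lower in SMCs. The windows were not tested against each other, and a match in letters is not a binding site. The 250 bases before the start are shown for these 4 genes, members of the contractile list whose windows held a box. The box is in capitals, 5′ to 3′ on the strand of the gene. The stretches are chr2:156775214-156775463 (plus strand, Myl9, box 161 bases before the start), chr14:20929148-20929397 (plus strand, Vcl, 227 bases), chr10:128493010-128493259 (minus strand, Myl6, 50 bases) and chr14:34588608-34588857 (minus strand, Ldb3, 109 bases).
Myl9: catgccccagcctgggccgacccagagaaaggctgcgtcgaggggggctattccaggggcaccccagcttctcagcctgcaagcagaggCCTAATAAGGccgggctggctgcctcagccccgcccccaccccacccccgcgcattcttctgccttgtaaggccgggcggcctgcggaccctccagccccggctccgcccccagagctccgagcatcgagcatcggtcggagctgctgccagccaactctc
Vcl: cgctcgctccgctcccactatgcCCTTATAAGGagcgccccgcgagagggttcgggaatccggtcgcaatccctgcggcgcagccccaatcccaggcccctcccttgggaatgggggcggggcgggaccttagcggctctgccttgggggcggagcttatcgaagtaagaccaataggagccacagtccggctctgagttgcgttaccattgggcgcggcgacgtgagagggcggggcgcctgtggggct
Myl6: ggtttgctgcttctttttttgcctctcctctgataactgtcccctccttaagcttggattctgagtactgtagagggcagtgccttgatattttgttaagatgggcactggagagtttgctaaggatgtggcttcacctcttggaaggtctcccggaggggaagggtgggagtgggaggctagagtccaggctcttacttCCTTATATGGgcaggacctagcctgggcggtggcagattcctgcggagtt
Ldb3: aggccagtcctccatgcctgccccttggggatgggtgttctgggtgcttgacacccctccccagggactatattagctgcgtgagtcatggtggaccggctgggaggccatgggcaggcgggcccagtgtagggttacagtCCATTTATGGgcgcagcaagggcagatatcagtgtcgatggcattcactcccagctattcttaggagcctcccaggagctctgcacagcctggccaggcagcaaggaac
In SMCs the levels behind these windows were 4603, 4559, 5406, 3176 and 2961 CPM for Myl9, 791, 299, 317, 620.2 and 463 CPM for Vcl, which links actin to adhesions, 7768, 7099.6, 6033, 4120.3 and 3715 CPM for the myosin essential light chain Myl6 and 432, 0, 71.6, 303 and 229 CPM for Ldb3, a PDZ and LIM protein of muscle. The windows of Acta2, Tpm2, Cnn1 and Lmod1 held no such letters.

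The 10 genes highest in SMCs among those with the same sign in every library were Acta2, Tagln, Itga7, E030013I19Rik, Pcp4l1, Lgr6, Scube3, Itga8, Kcnmb1 and Rbm24. The integrin chain Itga8 was the most abundant of them after Acta2 and Tagln, at 2374, 1868, 873, 2582 and 2503 CPM in SMCs and 0, 0, 4.78, 18.4 and 12.5 in FBs. Itga7, an integrin chain that binds laminin, stood at 144, 74.7, 86.8, 87.3 and 75.9 CPM and differed by 7.77 ± 0.42 (SE), adjusted p = 2.19e-72. The uncharacterised E030013I19Rik stood at 144, 149, 95.5, 219 and 144 CPM, Pcp4l1 at 144, 224, 217, 233 and 212 CPM, the secreted Scube3 at 144, 224, 99.9, 154 and 171 CPM and the RNA-binding Rbm24 at 71.9, 149, 19.5, 60.5 and 60.3 CPM. The log2 differences of these 5 lay between 7.32 and 7.77. In FBs each of them stayed below 10 CPM in every library.

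The 10 genes lowest in SMCs were Ifi205, Scara5, Tmem100, Cadm3, Ccl11, Opcml, Sult5a1, Scn7a, Abca8a and Fndc1. The adhesion protein Opcml stood at 619, 446, 443, 1299 and 1268 CPM in FBs and at 71.9, 0, 2.17, 7.53 and 4.17 CPM in SMCs. The transporter Abca8a stood at 662, 694, 414, 1324 and 1287 CPM against 0, 0, 0, 6.7 and 8.18, and the sodium channel Scn7a at 324, 446, 211, 494 and 571 against 0, 0, 0, 2.63 and 2.93. The chemokine Ccl11 differed by -7.68 ± 0.37 (SE), adjusted p = 2.59e-94 and the interferon-inducible Ifi205 by -8.44 ± 0.38 (SE), adjusted p = 3.51e-104. Apart from Opcml, with 1 UMI in 3m, the 10 genes had 0 UMIs in the young SMCs, where a count of 0 allows up to 216 CPM in 3m and 224 CPM in f3m.

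**Figure D2:**
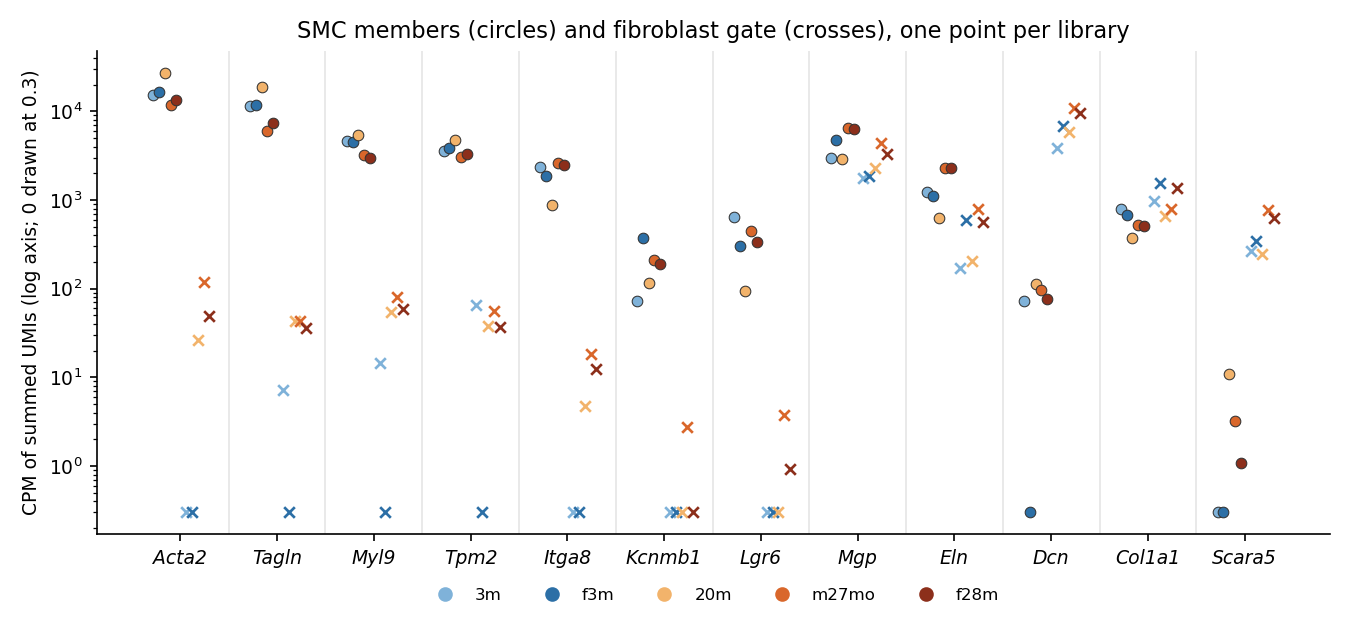
Levels of 12 genes in SMC members (circles) and in the FB gate (crosses), 1 point per library, in CPM of summed UMIs on a log axis, with 0 drawn at 0.3. Contractile genes, Itga8, Kcnmb1 and Lgr6 lie far above the FB points, Dcn and Scara5 far below, Mgp and Col1a1 close to them, and Eln above the FB point of each library.

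Genes of membrane excitability and calcium were almost all higher in SMCs. Of 16 listed, 11 were tested and 10 were higher, with a median of 4.07, where 20.0% of all genes were higher. Cacna1c, the pore of the L-type calcium channel, stood at 216, 149, 106, 498 and 582 CPM and its subunit Cacnb2 at 575, 523, 124, 822 and 654, with differences of 2.09 and 4.07. The calcium-activated potassium channel, which relaxes the cell, was seen in its pore Kcnma1 (288, 448, 115, 691 and 621 CPM, difference 5.05) and its smooth muscle subunit Kcnmb1 (71.9, 374, 115, 209.9 and 192 CPM, difference 7.52). In these genes 20m was the lowest of the old libraries. The potassium channel subunit Kcnab1 had the highest mean of the list, at 719, 673, 243, 1318 and 1246 CPM. Atp2a2 lay above it in 3m and 20m, and Ryr2, at 334 CPM, was the highest of the list in 20m. The calcium pump Atp2a2 of the sarcoplasmic reticulum differed by 1.49 and the release channel Itpr1 by 1.36. The release channel Ryr2 stood at 71.9, 224, 334, 419.6 and 427 CPM and did not pass the test (4.74 ± 1.72 (SE), adjusted p = 0.106). In 20m Ryr2 also stood at 215 CPM in FBs and 33607 CPM in barcodes of 1 to 100 UMIs, which hold free RNA, against at most 7.20 and 204 CPM in the other libraries, and the part of free RNA in its level there was not tested. Pln, which brakes the calcium pump, had 3, 0, 13, 354 and 53 UMIs in SMCs and 0 in FBs of every library. Kcna5, Ryr3, Trpc6 and Casq2 were among those too rare to be tested.

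Of 18 genes of vasoactive receptors and cyclic nucleotide signals 9 were tested and 7 were higher in SMCs, with a median of 2.65, where 20.0% of all genes were higher. The nitric oxide receptor, guanylate cyclase, was seen in both subunits, Gucy1a1 at 503, 299, 215, 386 and 321 CPM and Gucy1b1 at 288, 299, 149.8, 267 and 268 CPM, with differences of 4.78 and 5.18. The kinase of cyclic GMP, Prkg1, differed by 1.14, and the phosphodiesterases Pde3a and Pde5a, which end the cyclic nucleotide signal, by 2.65 and 2.44. Among receptors the thromboxane receptor Tbxa2r was higher (1.83 ± 0.23 (SE), adjusted p = 2.36e-14). The endothelin receptor Ednra stood at 0, 74.7, 15.2, 23.1 and 32.9 CPM and was not past the test (0.13 ± 0.22 (SE), adjusted p = 0.677). Htr2a, a serotonin receptor, reached 22.2 CPM in m27mo and was not tested. Ednrb, Agtr1a, Adra1a, Adra1d, Htr2b, Ptgir, Adora2a and Avpr1a had 0 UMIs in the young libraries, stayed below 20 CPM in 20m, m27mo and f28m, and were not tested. Rgs4, a brake on receptor signals, differed by 6.37 ± 0.35 (SE), adjusted p = 1.17e-71, while its relative Rgs5 was not past the test (5.33 ± 1.51 (SE), adjusted p = 0.0843).

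Of the list of smooth muscle transcription 21 were tested, 7 were higher, 6 lower and 8 not past the test, with a median of -0.09, where 20.0% of all genes were higher and 21.4% lower. Higher in SMCs were the Notch receptor Notch3 (4.16 ± 0.29 (SE), adjusted p = 7.91e-46) and the Notch targets Heyl (3.52) and Hey2 (4.17), together with Mef2c (2.18), Tead3 (1.65), Mef2d (0.54) and Srf (0.94), the serum response factor itself. Lower were Klf4 (-2.95), which opposes the contractile programme, the FB factors Tcf21 (-2.88) and Prrx1 (-1.63), and Zfpm2, Meis2 and Foxo1. The myocardin relatives Mrtfa and Mrtfb were not past the test. Levels were modest: Srf had 0 UMIs in both young libraries and 32.6, 19.8 and 17.7 CPM in the old ones, and Notch3 stood at 71.9, 149, 47.8, 71.3 and 66.3 CPM.

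TGF-beta and BMP genes were also split, 11 higher, 7 lower and 5 not past the test of 23, with a median of 0.15. Of all genes 20.0% were higher and 21.4% lower. Among targets, Ccn2 had the highest mean, at 719, 1419.9, 1519.7, 1919 and 2207 CPM (2.78 ± 0.30 (SE), adjusted p = 1.1e-19), with Id3 above it in 3m and 20m at 1007, 1419.9, 1619.6, 731 and 239 CPM. Among ligands Tgfb1, Tgfb2 and Tgfb3 were higher and Bmp4 and Bmp6 lower. Among receptors Tgfbr1 and Bmpr1a were higher (0.85 and 1.06) and Tgfbr2 and Tgfbr3 lower (-1.49 and -2.08). The BMP receptor Bmpr2, mutated in heritable pulmonary arterial hypertension, stood at 575, 299, 63, 226 and 189 CPM and was not past the test (-0.33 ± 0.27 (SE), adjusted p = 0.336).

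The extracellular matrix (ECM) list held genes of both cell types. Of 44 genes 43 were tested, 14 were higher in SMCs, 23 lower and 6 not past the test, with a median of -0.76, beside 20.0% higher and 21.4% lower of all genes. Eln, the elastin of the elastic lamellae, stood at 1223, 1121, 627, 2299.8 and 2271 CPM in SMCs and 173, 595, 203, 783 and 565 in FBs (1.72 ± 0.28 (SE), adjusted p = 3.58e-09). In each library the SMC value was above the FB value. Fbln5, which assembles elastic fibres, differed by 0.94, Emilin1 by 0.81, the TGF-beta binding protein Ltbp1 by 0.91 and the crosslinking enzyme Lox by 0.63. Of the basement membrane genes 6 were higher in SMCs, with Lama5 at 4.81, Col18a1 at 3.49, Col4a2 at 1.65, Col4a1 at 1.22, Lamb2 at 0.99 and Hspg2 at 0.72. Lama2, Lamb1 and Nid1, also of the basement membrane, were lower. Mgp, the inhibitor of calcification, had the highest mean of the list, at 2949, 4708, 2903, 6429 and 6305 CPM (0.65 ± 0.26 (SE), adjusted p = 0.0292), with the proteoglycan Bgn above it in 3m at 4244 CPM. The fibrillar collagens Col1a1 (-0.96), Col1a2 (-1.37) and Col3a1 (-1.33) were lower in SMCs but far from absent, with Col1a1 at 791, 673, 369, 526 and 508 CPM. Dcn, a proteoglycan of the adventitia, stood at 71.9, 0, 113, 97.2 and 76.5 CPM against 3843, 6845, 5859, 11010.4 and 9574 in FBs (-6.52 ± 0.35 (SE), adjusted p = 5.5e-74). The microfibril genes Fbn1, Mfap2 and Mfap5, the fibulin Fbln1, Fn1 and the protease Mmp2 were lower as well.

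All 14 tested inflammation genes and 18 of 19 tested interferon and antigen presentation genes were lower than in FBs, with medians of -3.66 and -1.55, where 21.4% of all genes were lower. The complement component C3 stood at 0, 74.7, 4.34, 23.2 and 42 CPM in SMCs and 5332, 1786, 2043, 2817 and 4465 in FBs. B2m, the light chain of class I antigen presentation, stood at 144, 149, 386, 300.3 and 265 CPM and differed by -1.56. Of 14 heat shock genes 7 were higher and none was lower, beside 20.0% and 21.4% of all genes. They were led by the small heat shock proteins Hspb7 (6.22) and Hspb6 (5.61), which are common in muscle. Of 12 tested p53 targets and cell cycle inhibitors 3 were higher and 5 lower, beside 20.0% and 21.4% of all genes, with Cdkn1a among the lower (-1.20 ± 0.27 (SE), adjusted p = 4.91e-05). Cdkn2a, a marker of senescence, had 0 UMIs in 3 libraries and 0.263 and 0.309 CPM in m27mo and f28m. The 10 genes of proliferation summed to 0, 0, 56.4, 30.3 and 26.7 CPM.

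**Figure D3:**
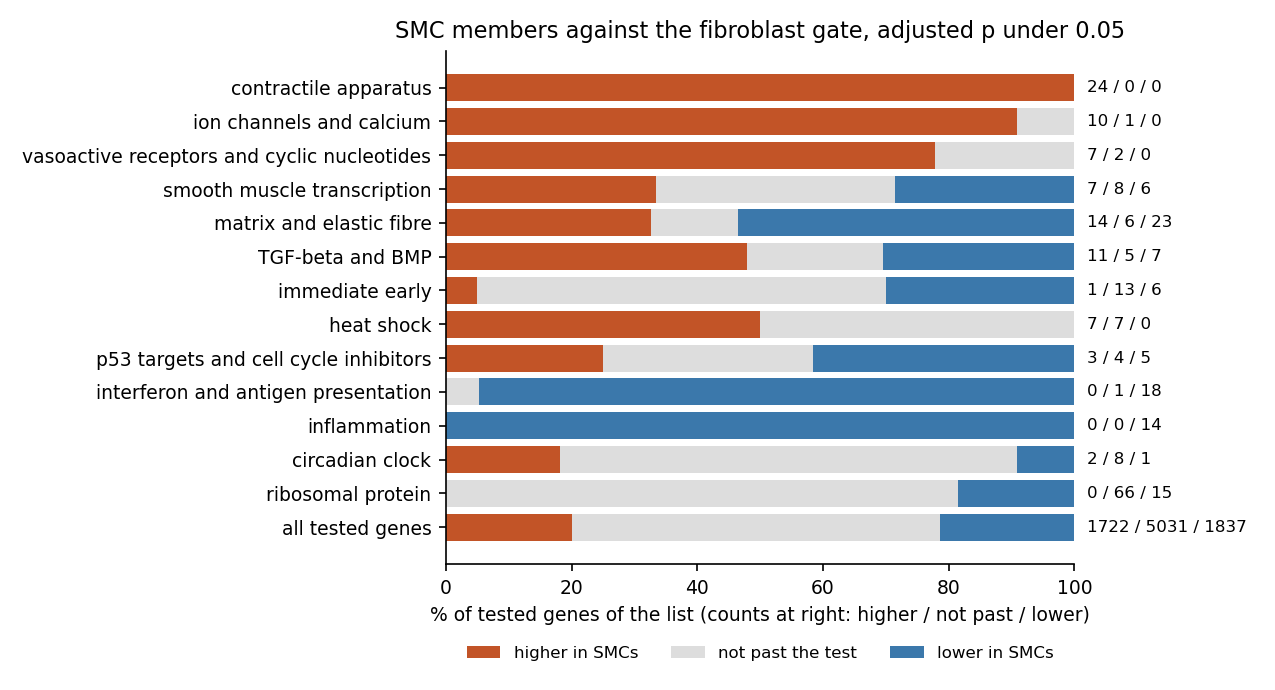
Share of the tested genes of each list that were higher (red), not past the test (grey) or lower (blue) in SMCs than in the FB gate, by edgeR with library as a block at an adjusted p under 0.05. The bar of all tested genes (1722 higher and 1837 lower of 8590) gives the background, which the contractile list (24 of 24 higher) and the inflammation list (14 of 14 lower) exceed in opposite directions.

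Markers of neighbouring muscle and mural cells were checked since the marker rule could admit them. Of the airway smooth muscle list Lgr6 was abundant at 647, 299, 93.4, 448 and 332 CPM (7.65 ± 0.42 (SE), adjusted p = 4.96e-73), while Hhip had 0 UMIs in 4 libraries and 0.175 CPM in m27mo, and Nog, Chrm2 and Chrm3 had 0 UMIs in the young libraries and less than 5 CPM in the old ones. Of 6 tested pericyte genes 4 were higher than in FBs, beside 20.0% of all genes. The defining Higd1b and Vtn had 0 UMIs in 4 libraries and 1.39 and 0.309 CPM in f28m, whereas Cspg4 stood at 503, 74.7, 202, 300.1 and 319 CPM, Abcc9 at 144, 0, 65.1, 229.6 and 233 and Pdgfrb at 71.9, 0, 126, 138 and 158. Of the cardiac list the muscle genes Tnnt2 (71.9, 299, 564, 167 and 85.5 CPM) and Actc1 (0, 299, 172, 205 and 199 CPM) were present and higher than in FBs. The defining genes of cardiac cells, Myh6, Myh7, Myl2, Myl7 and Nppa, stayed below 5 CPM in 20m, m27mo and f28m and had 0 UMIs in the young libraries except for 1 of Myh6 in f3m.

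Markers of unlike cells were low. The FB list, 12 genes, summed to 1295, 1046, 1248, 1499.7 and 1529.8 CPM in SMCs and 21834, 32735, 31595, 41132 and 34384 CPM in FBs, with Col1a1 and the actin-severing Gsn the most abundant. The list includes Pdgfra, Clec3b, Dpt, Lum and Pi16, which chose the FBs, so part of this contrast was fixed by the rules. Gsn, outside both rules, stood at 360, 299, 612, 762 and 824 CPM in SMCs and 6959, 11804, 14838, 18784 and 14146 CPM in FBs. The 10 endothelial genes summed to 0, 0, 60.8, 59.4 and 74.2 CPM, mostly Pecam1, with Egfl7 at 0, and 11 macrophage genes to 71.9, 0, 28.2, 98.2 and 240.1 CPM, with Cd74 and Lyz2 the most abundant in m27mo and f28m. The airway epithelial list summed to 288, 1121, 69.5, 137 and 32.1 CPM, mostly Scgb1a1. The largest of these sums was in f3m, where 9 of 18 members had a Scgb1a1 UMI, and its part in the comparisons was not tested. Leaving out every member with a UMI of those other types left 1 young library, as given with the limits. Pecam1, Cdh5, Ptprc and Scgb1a1 count against membership, so the rule itself held these sums down and they are no independent check of identity. The macrophage sum of 3m was 1 Ptprc UMI. Outside the rule, Vwf stood at 4.34, 7.62 and 12.2 CPM and Lyz2 at 0, 19.1 and 78.7 CPM in 20m, m27mo and f28m.

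The 3 old libraries with enough members differed from each other. Each age is 1 library, so these differences have no replicate check and no test. Among 3292 genes with at least 20 UMIs in each, the highest level was that of 20m in 44.9%, of m27mo in 31.8% and of f28m in 23.3%. Members held 460619, 22827680 and 6481293 UMIs in 20m, m27mo and f28m, so 20 UMIs is a far higher level in 20m. This limit favours genes that are high in 20m, and no order of the libraries is read from these shares. The list counts below were made over the same genes. Ages, sexes and libraries cannot be told apart here.

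The SMCs of 20m had higher levels of Acta2 and Tagln and lower levels of the ion channels. In 20m, m27mo and f28m Acta2 stood at 27224, 11823 and 13353 CPM, Tagln at 18649, 5918 and 7473 and the actin-severing Dstn at 2707, 829 and 851. All 10 ion channel genes with enough UMIs were lowest in 20m, such as Cacnb2 (124, 822 and 654 CPM), Kcnma1 (115, 691 and 621) and Cacna1c (106, 498 and 582). Of 7 vasoactive genes 6 were lowest there too, with Pde3a at 267, 1217 and 1410.2 CPM and Prkg1 at 379.9, 1522 and 1224. The contractile list as a whole did not follow Acta2: 12 of its 23 genes were lowest in 20m, among them Mylk (478, 1566 and 1215 CPM) and Synpo2 (365, 1497 and 1481). Among all 3292 genes 46.4% were lowest in 20m.

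Of 10 interferon genes 9 were highest in 20m. Ifitm3, which blocks virus entry, stood at 1580.5, 256 and 309.8 CPM, Bst2, which tethers budding virus, at 261, 36.8 and 54.9 and the ubiquitin-like Isg15 at 234, 11.3 and 16.8. Isg15 had a UMI in 21 of 138 members of 20m, and 1 member held 17 of the 108 UMIs. Heat shock genes were highest in 20m for 11 of 14, with Hspb1 at 1702, 478 and 399 CPM, and ribosomal protein genes for 65 of 78, where 44.9% of all 3292 genes were highest in 20m. In FBs the interferon list summed to 6065, 2937 and 4398 CPM in 20m, m27mo and f28m. The heat shock list summed to 4038, 2394 and 2256 CPM there and the ribosomal protein list to 148562, 86446 and 90710. Library 20m was thus the highest of these libraries in FBs too.

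Immediate early genes, which respond within minutes to growth signals and handling, separated m27mo from f28m. Of 19 genes 16 were highest in m27mo and 15 were lowest in f28m, where over all 3292 genes 31.8% were highest in m27mo and 21.8% lowest in f28m. Fos stood at 1554, 2746 and 315 CPM, Egr1 at 784, 2752 and 180.2 and Junb at 966, 1193 and 140.4. The list summed to 6114, 7399, 7807, 16568 and 3319.7 CPM in SMCs over the 5 libraries and to 15803, 17657, 14194, 12078 and 3841 CPM in FBs, where f28m was also the lowest. Haemoglobin transcripts were highest in f28m. Hbb-bs stood at 144, 299, 13, 83.3 and 5793 CPM in SMCs, at 101, 248, 16.7, 12.6 and 7371 CPM in FBs and at 16872, 58558, 4813, 718 and 63505 CPM in barcodes of 1 to 100 UMIs. As a share of the UMIs of those barcodes, Hbb-bs in f3m was close to that in f28m. Those barcodes summed to 3675646 UMIs in f3m and 1154462 in f28m. In members the share was far lower in f3m than in f28m, and the part of free RNA in these levels was not tested.

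**Figure D4:**
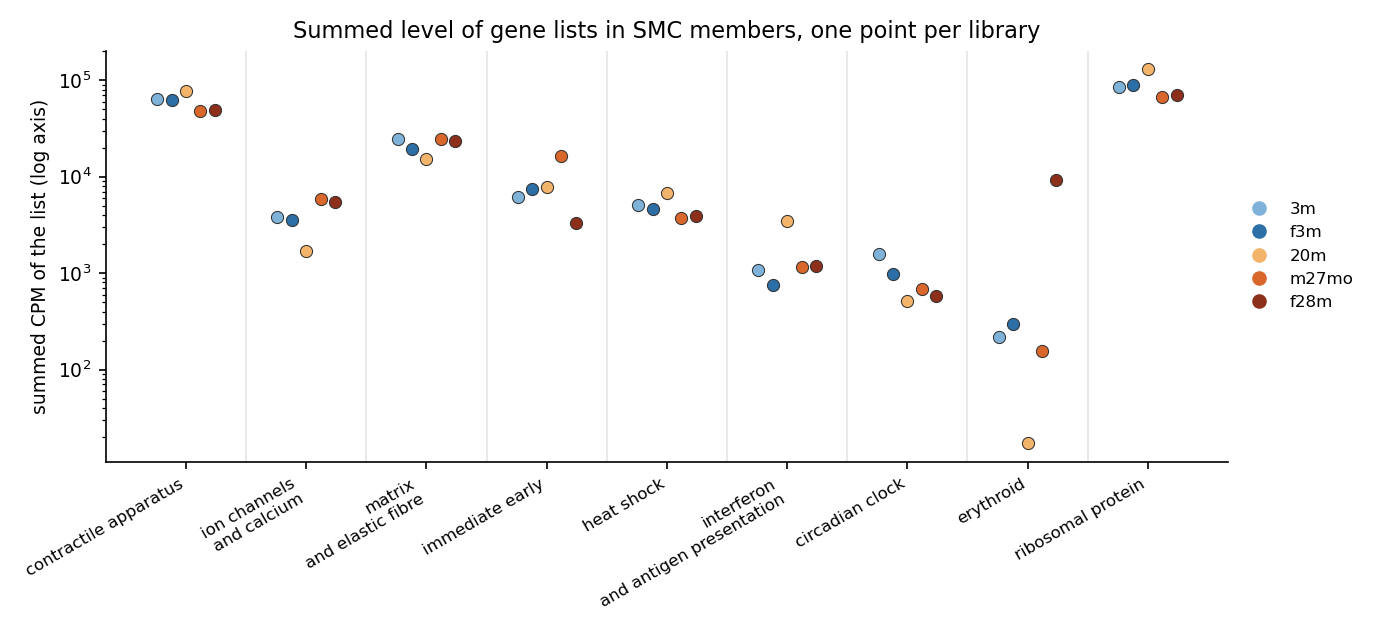
Summed level of 9 gene lists in the SMC members of 5 libraries, in CPM on a log axis, 1 point per library. Library 20m is lowest for ion channels (1698 CPM) and highest for interferon genes (3495 CPM), m27mo is highest for immediate early genes (16568 CPM) and f28m for erythroid genes (9137 CPM).

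The single genes with the largest fold over the next old library were largely of little known function or tied to sex and blood. In 20m they were Adam2, Gm48681, Gm34319, Gm44986, Wfdc8, 1700066B19Rik, Gm49357 and Gm17067. All 342 UMIs of Adam2 came from 1 member, whereas Gm48681 had UMIs in 59 of 138 members, at 330.0, 0.0876 and 0 CPM. In FBs of 20m it stood at 158 CPM and in barcodes of 1 to 100 UMIs at 90.4 CPM. In m27mo they included the Y-linked Uty and Eif2s3y, then Il1rapl1, Gm48099, Gm5784, Slc15a2 and Gm26802. In f28m they were 4 haemoglobin genes, Gm37257, Gm15218, the chemokine Ccl8 and S100a9. Ccl8 stood at 66.8 CPM in the members and 1148 CPM in barcodes of 1 to 100 UMIs, and Gm15218 at 145 and 456 CPM. Of 423 S100a9 UMIs 402 came from 1 member.

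Age was addressed by comparing 3 old with 2 young libraries. No gene passed an adjusted p of 0.05 in edgeR (0 of 7675, 0.0%). At an unadjusted p under 0.05 there were 760 genes, all with a fold over 2, of which 732 were higher in old (9.54%) and 28 lower (0.365%). DESeq2 called 3 genes at the adjusted threshold, all lower in old. At an unadjusted p under 0.05 with a fold over 2 it counted 273 genes, 161 higher and 112 lower. The split by direction changed with the scaling. The median log2 difference of all genes was 0.90 with TMM factors, which were 1.44 and 1.40 in the young libraries, and 0.08 with library sizes alone, where 96 genes were higher and 129 lower at the same threshold. The gene filter asked for a set share of members with a UMI in 3 or more libraries. The 3 old libraries alone could meet it and the 2 young ones alone could not. It thus admitted genes seen only in old SMCs and barred genes seen only in young ones. Of the genes tested, 1956 (25.5%) had 0 UMIs in the young SMCs. No direction is read from the counts of 732 and 28. Without 20m 193 genes passed, 165 higher and 28 lower in old, and 69 (26 higher, 43 lower) when TMM was left out as well.

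Counts of genes whose ages did not overlap turned on the depth asked of a gene. Of all 7675 genes tested, 2219 were higher in every old than in every young library (28.9%) and 862 were lower (11.2%). Of the 462 genes with at least 10 UMIs in each group, 21 were higher (4.55%) and 99 were lower (21.4%). With 27284 UMIs in the young SMCs, 10 UMIs is a far higher level in young than in old, so a gene entered these 462 mainly through its young level. No direction is read from either count. The 10 of the higher genes with the smallest p were Fth1, Rps3a1, Ptgis, Tpt1, Naca, Rps12, Rpl8, Rps7, Ccn2 and Rplp1, none past the adjusted test. Without 20m 9 of these 10 passed edgeR's adjusted test, all but Rps7, and 3 of them (Fth1, Tpt1 and Ccn2) passed when TMM was left out as well. Fth1, the ferritin heavy chain that stores iron, stood at 3884 and 3288 CPM in young and 13658, 6570.3 and 10181 CPM in old SMCs, a log2 difference of 2.41 ± 0.73 (SE), adjusted p = 0.47. Ptgis, which makes prostacyclin, stood at 216 and 598 against 1072, 860.1 and 1009.8 CPM (2.15 ± 0.75 (SE), adjusted p = 0.47), and Ccn2 at 719 and 1419.9 against 1519.7, 1919 and 2207 CPM (1.66 ± 0.68 (SE), adjusted p = 0.47). For Ptgis and Ccn2 the gap between the groups was smaller than the difference within young. These differences are to be read against the median of 0.90.

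Among genes lower in old, the 10 with the smallest p were Smg5, Ntrk2, Gm10801, Tle4, Trim30a, Gm5526, Rpl15, Atxn7l3b, Gm10080 and Atp5md, with adjusted p from 0.157 to 0.620. Without 20m 9 of them could be tested and 6 passed (Smg5, Ntrk2, Tle4, Trim30a, Rpl15 and Atp5md), whereas Smg5 and Gm10801 passed without m27mo and without f28m. Smg5, Ntrk2 and Gm10801 passed with library sizes alone and in DESeq2. Smg5, of nonsense-mediated decay, stood at 1367 and 149 CPM in young and 10.9, 38.8 and 37.8 in old SMCs (-3.81 ± 0.72 (SE), adjusted p = 0.157), and its young UMIs were 19 in 3m and 2 in f3m. Ntrk2, the BDNF receptor, stood at 144 and 897 against 34.7, 22.1 and 13.4 CPM (-3.71 ± 0.76 (SE), adjusted p = 0.243). In both genes 1 young library was several times the other. Gm10801 stood at 2877 and 2242 against 76, 11.5 and 8.18 CPM in SMCs and at 6412, 2282, 76.6, 1.36 and 52.5 CPM in FBs. In barcodes of 1 to 100 UMIs, which hold free RNA, Gm10801 stood at 111678, 31314, 11305, 78.1 and 118 CPM in 3m, f3m, 20m, m27mo and f28m, Ntrk2 at 117, 4410.4, 1786, 9.67 and 13 CPM and Trim30a at 923, 1054, 361, 36.3 and 44.2 CPM. Free RNA of these genes was thus higher in each young library than in m27mo and f28m, and its part in the differences was not tested. The clock genes Dbp and Nr1d1, singled out after their values were seen, stood at 432 and 224 against 52.1, 5.3 and 17 CPM and at 288 and 224 against 158, 18.9 and 62.8 CPM, on 9 and 7 young UMIs, and neither passed the test. Other clock genes, such as Clock, Per1, Nr1d2, Tef and Hlf, had at most 3 UMIs in a young library, and no order is read from them.

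The summed lists that mark the cell type overlapped between the ages. Of 24 contractile genes 4 (Myl6, Smtn, Flna and Pdlim7) were lower in every old than in every young library and 2 were higher, and of 40 tested matrix genes 7 were lower, such as Fn1 (575 and 673 against 158, 299 and 267 CPM) and Col1a1 (791 and 673 against 369, 526 and 508 CPM), and 7 were higher. Over all 7675 genes 11.2% were lower and 28.9% higher in this way, so neither list stood far above these shares. None of these genes passed the adjusted test. The contractile list summed to 63512, 62327, 77739, 48545 and 49405 CPM, so both young libraries lay between the old ones, and its median log2 difference was 0.86 beside 0.90 over all genes. The matrix list summed to 24887, 19580, 15240.4, 24893 and 23303 CPM, with a median of 0.89. For Eln (1223 and 1121 against 627, 2299.8 and 2271 CPM) and Mgp (2949 and 4708 against 2903, 6429 and 6305 CPM) m27mo and f28m were above both young libraries and 20m was below them. The dystrophin gene Dmd, chosen after its values were seen, showed the same order at 4099.8 and 3363 against 1424, 4818 and 4634 CPM. The ribosomal gene Rps29, also chosen later, stood at 3093 and 3214 CPM in young and 3686, 814 and 493 CPM in old SMCs, with 20m above both young libraries and the other 2 below.

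Whether an age difference of SMCs differed from that of FBs was tested as an interaction. Of 8590 genes 10 passed (0.116%), all with a more positive difference in SMCs, and 1 passed with library sizes alone. Over all genes the median of this log2 term was 0.76, with 5790 of 8590 positive, and 0.23 with library sizes alone. The direction of the 10 is to be read against that shift. The 10 genes were Mylk4, Dnmbp, Ano1, Dpp10, Ifi27l2a, Gcnt2, Cacnb2, Fgf1, Junb and Krt18. Cacnb2 stood at 575 and 523 against 124, 822 and 654 CPM in SMCs and at 144, 99.2, 7.18, 35.1 and 20.6 CPM in FBs of the 5 libraries, a difference of differences of 3.26 ± 0.68 (SE), adjusted p = 0.0194. Junb stood at 216 and 224 against 966, 1193 and 140.4 CPM in SMCs and at 1899.8, 2331, 2349, 1428 and 308 in FBs (2.93 ± 0.64 (SE), adjusted p = 0.0323). For Cacnb2 the FB levels were lower in each old than in each young library, while its SMC levels overlapped. For Junb 20m and m27mo were high in SMCs and f28m was low. Mylk4, a myosin light chain kinase, had 935 CPM in 3m and 0 in f3m, and its FB level was 504 CPM in 3m, against at most 4.78 CPM elsewhere. Dnmbp, Dpp10, Ifi27l2a, Gcnt2 and Fgf1 had 0 UMIs in young SMCs, so their fitted differences are not bounds. By the same edgeR test, no gene passed without 3m (206 at an unadjusted p under 0.05) or without f3m (733), and 134 of 6611 genes passed without 20m.

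Within the type, the widest spread between SMCs of m27mo was in haemoglobin transcripts, which come from red blood cells. Overdispersion, the variance of UMIs over that expected from counting, had a median of 1.06 over 8934 genes in m27mo and 1.01 over its genes in f28m. The 15 most overdispersed genes of m27mo were 4 haemoglobin genes, Dcn, Peak1, Gm10801, Malat1, Mgp, Retnla, Atg4a, the rRNA genes mt-Rnr2 and Rn18s, Rgs5 and Cd74. Hbb-bs had a value of 804, with 90.3% of its UMIs in the top 1 percent of members. Dcn, at 59.4, had a UMI in 17.3% of members and in 14% of immune barcodes, and 60.9% of its UMIs lay in the top 1 percent. Peak1 stood at 45.9 in m27mo, 2.83 in f28m and 114 in 20m, the highest there of these 15 genes, with 63.8% of its UMIs in the top 1 percent. Of the 100 most overdispersed genes in each of the 2 libraries 68 were the same, 68% of each list.

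Of the genes with wide and shared spread, Mgp and Malat1 were found in nearly every cell. Mgp had an overdispersion of 33.1 and 17.7, with a UMI in 99.7% and 99.4% of members, and a percentile 10 of 5.4 and a percentile 90 of 38 UMIs at 3000 UMIs per cell in m27mo. Acta2 ran from 19 to 55.6 UMIs between the same percentiles. Over 2375 and 984 cells, which share a library and differ in depth, the depth-scaled residuals of Acta2 and Tagln were correlated at 0.57 and 0.65, those of Acta2 and Malat1 at -0.33 and -0.30 and those of Acta2 and Mgp at -0.30 and -0.23. Mgp and Eln were hardly correlated (0.09 and -0.03). Fos and Egr1 were correlated at 0.46 and 0.24.

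List totals varied between cells to different degrees. Immediate early genes took a median of 171 UMIs per 10000 in m27mo, with 46.7 at percentile 10 and 240 at percentile 90. In f28m the median was 29.9 (11.6 to 52.4). In 20m it was 44.4 with 195 at percentile 90, so the upper cells of 20m passed the median of m27mo. Interferon genes in 20m had a median of 17.7 and a percentile 90 of 68.4 UMIs per 10000, against a percentile 90 of 19.6 in f28m. Contractile genes had a median of 487 (346 to 647), 488 (338 to 657) and, in 20m, 787 (519 to 1035).

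Rgs5, a brake on receptor signalling often used as a mural cell marker, was singled out after its values were seen because it was overdispersed and split the cells. Its overdispersion was 20.4 and 11.1. A Rgs5 UMI was found in 42.4% of members of m27mo, 31.4% of f28m and 10.1% of 20m. In immune barcodes, which should lack it, the share was 2.22% in m27mo, 1.48% in f28m and 0 of 83 in 20m. With each cell thinned to 3000 UMIs the first 2 shares were 31.6% (130 shallower members left out) and 23.9% (117 left out), and at 2000 UMIs that of 20m was 4.8% (13 left out). In FBs Rgs5 stood at 0, 0, 33.5, 5.12 and 5.95 CPM, against 647, 0, 43.4, 547 and 356 in SMCs. Among thinned cells of m27mo 1535 had 0 Rgs5 UMIs, 216 had 1 and 494 had 2 or more. In f28m the numbers were 660, 61 and 146. These classes are cut from a count, and are ranges of 1 gene, not cell types.

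The genes that went with Rgs5 from cell to cell were largely the same in both libraries. The 10 with the highest correlation of residuals in m27mo (0.318 to 0.482, 8933 genes) were Pde4d, Sost, Vcan, Pde10a, Pdzrn4, Adgrg6, Slc24a4, Lgr6, Ncam1 and Rasl10b. All 10 were positive in f28m (0.174 to 0.412) and 8 were among the 20 highest there. Since they were picked in m27mo, ratios above 1 in that library follow from the choice, and only f28m was free to differ. Pde4d, which degrades cyclic AMP, stood at 829 CPM in cells with 2 or more Rgs5 UMIs and 236 CPM in cells with 0, a ratio of 3.51, and the ratio was 2.90 in f28m. Sost, the Wnt inhibitor sclerostin, stood at 2666 against 1331 CPM in m27mo and had a ratio of 1.97 in f28m. Vcan, a proteoglycan, had ratios of 2.95 and 2.59, and Adgrg6, an adhesion receptor, 5.65 and 6.40. Sost itself was abundant at 2589, 299, 638, 1619 and 1132 CPM. Mgp had ratios of 1.49 and 1.34. Of the pericyte list, the potassium channel genes Kcnj8 and Abcc9 had 2.67 and 3.48, and 1.64 and 1.54. Cox4i2 had 1.79 and 1.51, Pdgfrb 1.21 and 1.19 and Cspg4 1.08 and 1.24. Colec11 (1.20 and 0.904) and Ndufa4l2 (0 and 4.52) rested on few UMIs. Higd1b and Vtn, also of this list, had 0 UMIs in all members of m27mo. In f28m they had 2 and 1 UMIs in cells with 2 or more Rgs5 UMIs and 0 in cells with none.

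The 10 with the lowest correlation were Itgbl1, Gucy1a1, Fmo2, Gpc6, Bcam, Mast4, Ahnak, Tpt1, Tinagl1 and Hdac9, all of them negative in f28m as well. The nitric oxide receptor subunit Gucy1a1 had ratios of 0.613 and 0.493, the oxygenase Fmo2 0.643 and 0.602, and Mast4 0.719 and 1.02. Apoe (0.302 and 0.234) and Nxph1 (0.231 and 0.494), named after their values were seen, were also lower in cells with Rgs5. Of the contractile genes, Acta2 had ratios of 0.875 and 0.929, Tagln 0.903 and 0.862 and the rule gene Myh11 0.961 and 1.00. Eln had 0.897 and 0.896. Median depth was 9880.5 and 9644 UMIs in the 2 classes of m27mo and 7390 and 6872 in f28m. Cells of 1 library are not replicates, so these ratios have no test, and their n is 2 libraries. The 10 genes of lowest correlation were also picked in m27mo, so their ratios there follow from the choice.

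**Figure D5:**
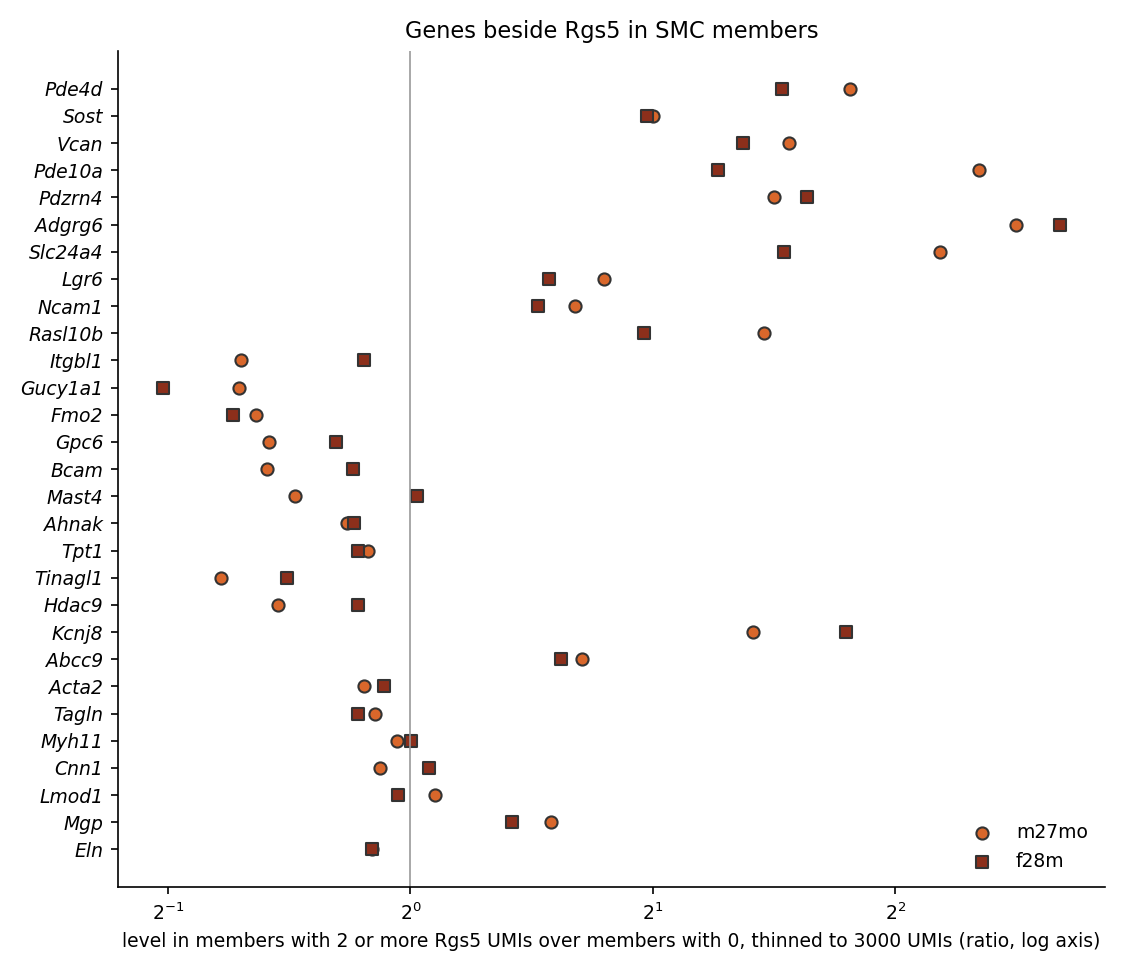
Ratio of a gene's level in SMC members with 2 or more Rgs5 UMIs to that in members with 0, each thinned to 3000 UMIs, on a log axis, for m27mo (circles) and f28m (squares). The first 10 genes lie right of 1 in both libraries, up to 5.65 and 6.40 for Adgrg6, whereas Acta2, Tagln, Myh11, Cnn1 and Lmod1 lie close to 1. Those 10 were picked by their correlation with Rgs5 in m27mo, so their side of 1 was free to differ only in f28m.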

How the data were processed

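The authors trimmed reads with Cutadapt and counted them with STARsolo on GRCm38.p6 (versions not given in the sources used here). They deposited counts, which are raw UMI counts per gene and barcode for 53647 genes, with no normalization. Library totals ran from 6355125 to 50436562 UMIs. The members, gene lists and tests were chosen with earlier results of these data known, and the markers, rules and gene lists were taken from general knowledge of the cell types. Gene identifiers carry another version than the annotation at hand, so gene coordinates are not given except for the RefSeq promoter windows.

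UMIs were summed per library and cell type, for libraries with at least 10 members. The filter followed the study (a UMI in more than 5% of the members, in 3 or more libraries). Tests used edgeR 4.0.16 (TMM, the robust quasi-likelihood test, p adjusted by Benjamini-Hochberg over every gene tested, threshold 0.05) in R 4.3.3, with DESeq2 1.42.0 and the alternatives given with the limits. The SMC and FB sums of a library come from the same mouse, so the library is the replicate block there. Replicate numbers of young and old libraries pair nothing. Genes at the threshold of the study (p under 0.05 before adjustment, more than a 2-fold difference) were also counted, without its mixed model over cells. Doublets were marked with scrublet per library, and its top share of 0.8% per 1000 barcodes where it marked under 0.5%. Marked members, 147 in all, were kept in the main fits. Shares were compared with the exact permutation test over libraries. The steps were tested on simulated data. Intervals, floors (3 counts) and thinning cover counting error only. Other tools were Python 3.11.15, numpy 2.4.6, scipy 1.17.1, pandas 2.3.3, scanpy 1.11.5 and matplotlib 3.10.9.

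Genes named are, for old against young, the 10 with the smallest p in each direction without overlap and with at least 10 UMIs in each group, since none passed. For SMC against FB they are the 10 largest differences in each direction past the test with the same sign in every library and over 50 CPM. For the old libraries they are the 8 with the largest fold over the next library with at least 20 UMIs, and within SMCs the 15 with the largest overdispersion and at least 0.1 UMI per member. Members of the lists and the 12 genes of the rule were named as well, and others are said to be chosen later. A few genes that these rules name are not reported here.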

Additional observations from a re-analysis of the deposited data

Results flagged for a closer look

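The age difference (old minus young) of 10 genes differed between SMCs and FBs by the interaction term of the edgeR fit, which tests the difference itself. On the log2 scale, as SMC minus FB, it was 7.64 for Mylk4, 14.9 for Dnmbp, 6.64 for Ano1, 16.3 for Dpp10, 13.8 for Ifi27l2a, 15.1 for Gcnt2, 3.26 for Cacnb2, 14.2 for Fgf1, 2.93 for Junb and 5.82 for Krt18. The fitted values of Dnmbp, Dpp10, Ifi27l2a, Gcnt2 and Fgf1 rest on 0 UMIs in both young SMC libraries, those of Ano1 and Krt18 on 1, and they are no measure of size. Of Dnmbp, 404 of the UMIs in FBs came from 3m, at 2907 CPM, against 0 in f3m. Cacnb2 had 8 and 7 UMIs in the young SMCs and Junb 3 and 3. The median of this term over all genes was 0.76. With library sizes alone 1 gene passed.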

How the results depend on the processing

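Young SMCs were few (31 barcodes, 27284 UMIs), and this depth limits every result that uses them. The 20 genes named between SMCs and FBs kept their direction and side of the threshold in all 250 combinations of gene and setting and 228 of 267 combinations kept theirs for the 20 genes named between old and young. The old minus young share of members was 10.6 to 31.4 points with 1 library left out and 10.8 to 25.2 points under the other settings, and the design is too small for its p to pass.

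Between old and young the number of genes past the adjusted test was 0, and 3 without TMM, 1 with filterByExpr, 12 with no gene filter, 3 with DESeq2, and 0 to 193 with 1 library left out, the highest without 20m (193), where fewer genes (5631) were tested. That library out and no TMM, chosen after seeing the data, gave 69. At the study's threshold the number was 760, and 225 without TMM, 1952 with no gene filter, 215 with at least 5 marker UMIs, 305 with no UMI of another type, 29 after thinning to 500 UMIs, 105 to 612 with 1 library left out and 353 with 20m out and no TMM. At 5 marker UMIs, at no other-type UMI and after thinning 1 young library was left, and its spread was taken to be that of the old ones. With no UMI of another type Trim30a (0.249), Rpl15 (0.607) and Atp5md (0.0110) turned positive. The cause was not tested.

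Between SMCs and FBs 3559 genes passed, 1026 of 1815 after thinning, 1658 with no replicate block, 2810 with DESeq2 and 1462 to 3590 with 1 library left out, fewest without f28m (1462), next without m27mo (1509), where fewer genes were tested. For the interaction the number was 10, and 1 without TMM, 0 with at least 5 UMIs in both gates, 0 after thinning and 0 to 134 with 1 library left out (0 without either young library, 134 without 20m, 17 without f28m). Dnmbp turned to -0.616 with at least 5 UMIs, where 3m also dropped out. With 1 library left out Dnmbp ran from -0.635 to 16.3, Ano1 from -6.45 to 17.3 and Krt18 from -6.79 to 6.08, each lowest, and turned, without 3m. Replicate numbers pair no young with old library.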

Other observations

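The 2 members of 24m, which entered no comparison, held 2341 UMIs, a median of 1170.5 each. Both had a UMI of Myh11, Cnn1, Actg2, Acta2 and Tagln, 1 of them had Myocd and Myl9, and neither had Lmod1. The same library held 171 barcodes of the FB gate, 5.96% of its kept barcodes, against 11.4% in 20m, 13.1% in m27mo and 19.9% in f28m, and 4.67% in 3m and 2.99% in f3m. Acta2 stood at 35.0 CPM in its barcodes of 1 to 100 UMIs, against 1205 CPM in 20m, 2642 CPM in m27mo and 1693 CPM in f28m, and 44.1 and 61.5 CPM in the young libraries.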
